A study of Mus musculus with 8 samples.

Results

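Among 7 mouse melanomas that developed resistance after their driving oncogene was switched off, 3 carried a high signal for Met and 4 did not. Met encodes the receptor tyrosine kinase for hepatocyte growth factor. The 3 tumours were chosen from the deposited normalized intensity of the single Met probe on the array: a tumour was called Met-high when its signal was at least 4 times that of the control tumour, and Met-low otherwise. Resistant tumours 2, 4 and 7 were Met-high and resistant tumours 1, 3, 5 and 6 were Met-low. These 7 are the resistant samples of 8 in all, and the eighth is 1 control tumour that is shown for reference and entered no test. The sides come from the measured values and are not groups of the study, so every comparison below describes genes that ran with the Met signal in these samples.

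Each of the 8 tumours was read on 1 Illumina bead array, with 11821 to 12851 of 25697 probes detected. All tumours came from FVB/n mice of the genotype DCT-TVA;Ink4a/Arf lox/lox, in which the Dct promoter puts the avian virus receptor TVA on melanocytes and Cre removes the floxed tumour suppressor locus, in the control too. The 7 resistant tumours were started with 2 viruses, Tet-off and TRE-NRASQ61R-IRES-Cre, and grew on doxycycline food, which switches the mutant NRAS and the Cre off; their treatment is given as NRASQ61R Off. The control is given as NRASQ61R On, and its description names NRAS-IRES-Cre without Tet-off, so its virus is not settled by the labels. The labels give neither the age of the mice nor whether each tumour came from a mouse of its own, so the p-values take in the spread among these arrays, which may be partly technical.

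The melanocyte label was checked first. Among 19 genes of melanocyte pigmentation that the array covers, 10 were undetected in all 7 resistant tumours, among them the lineage factors Mitf and Pax3 and the pigment enzymes Tyr, Tyrp1 and Dct. Of the 8 that could be tested, 0 passed. Tumour 6 stood apart, with a mean correlation of 0.883 with the other resistant tumours, against 0.913 to 0.941 for the rest, and tumour 1 had the highest summed signal of skeletal muscle and lymphocyte genes. Results are therefore given without either of them where that changes a call. The 3 Met-high tumours correlated with each other at 0.950 to 0.977 over all genes, the 4 Met-low tumours at 0.881 to 0.950, and mixed pairs at 0.865 to 0.958. These are descriptions across genes, which are not independent.

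HGF is a secreted protein made mainly by stromal cells such as fibroblasts. It binds MET on epithelial, melanocytic and tumour cells, and the activated receptor recruits adaptors such as GRB2 and GAB1 that feed the RAS-MAPK and PI3K-AKT pathways. In melanoma the pair is known for driving motility and invasion, and for keeping these pathways active when an oncogene above them is blocked.

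The sequences just before the transcription starts of Met and Hgf are shown because the contrast turns on these genes. They are the 250 bases before each annotated start, from RefSeq on build GRCm38.p6, both genes on the plus strand: Met at chr6:17463707-17463956 and Hgf, with 2 annotated starts, at chr5:16553245-16553494 and chr5:16553651-16553900. Capitals mark matches to 4 motifs searched on both strands in windows of 250 bases before to 50 bases after each start, namely TGANTCA (bound by AP-1), CACGTG (the E-box bound by MITF and MYC), CCGGAAGT (ETS) and GGGCGG (SP1).
Met: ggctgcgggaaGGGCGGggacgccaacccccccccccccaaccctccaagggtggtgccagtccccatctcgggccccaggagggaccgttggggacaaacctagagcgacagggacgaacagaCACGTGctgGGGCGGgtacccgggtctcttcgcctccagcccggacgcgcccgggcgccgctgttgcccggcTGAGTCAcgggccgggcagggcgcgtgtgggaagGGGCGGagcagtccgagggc
Hgf, first start: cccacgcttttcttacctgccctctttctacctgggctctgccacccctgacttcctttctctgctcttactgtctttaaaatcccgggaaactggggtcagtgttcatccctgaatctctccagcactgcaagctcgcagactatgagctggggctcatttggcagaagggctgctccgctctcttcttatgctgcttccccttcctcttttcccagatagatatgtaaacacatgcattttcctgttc
Hgf, second start: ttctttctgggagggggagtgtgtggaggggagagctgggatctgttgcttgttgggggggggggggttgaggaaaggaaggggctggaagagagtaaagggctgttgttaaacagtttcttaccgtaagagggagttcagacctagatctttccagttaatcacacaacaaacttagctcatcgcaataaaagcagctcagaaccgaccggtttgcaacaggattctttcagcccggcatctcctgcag
The Met window is rich in G and C (74.0% of its bases, against 50.8% and 51.2% for Hgf). It holds TGAGTCA starting 54 bases before the start, CACGTG 126 bases before it, and GGGCGG at 239, 117 and 20 bases before it. Neither Hgf window holds any of the 4 motifs. Among 32851 RefSeq windows of the same length, 7.81% hold TGANTCA, 7.15% CACGTG, 3.89% CCGGAAGT and 35.7% GGGCGG, so these matches are a description of the letters only.

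Met separated the 7 tumours by construction, and its values are given without a test. On the deposited normalized scale the Met probe read 73.9 in the control, 1337.4, 784.3 and 968 in tumours 2, 4 and 7, and 80, 77.7, 117.5 and 74.4 in tumours 1, 3, 5 and 6. These are 18.1, 10.6 and 13.1 times the control on the high side and 1.08, 1.05, 1.59 and 1.01 times on the low side. The limit of 4 fell in the wide gap between tumour 5, the nearest below it at 1.59 times, and tumour 4, the nearest above it at 10.6 times. After background correction and quantile normalization on the log2 scale, Met was 10.32, 9.51 and 9.83 in the Met-high tumours and 4.80, 4.74, 5.92 and 4.66 in the Met-low tumours. Met was detected in all 3 Met-high tumours and in tumour 5, and it was not detected in tumours 1, 3 and 6 or in the control. The low side is thus mostly at the array's floor.

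Hgf, which was taken up with its values known and is also given without a test, followed the same split. Its log2 intensity was 8.21, 7.53 and 8.36 in tumours 2, 4 and 7 and 4.86, 4.94, 6.06 and 5.47 in tumours 1, 3, 5 and 6, with 5.53 in the control. The ranges do not overlap, and Hgf was undetected in tumours 1 and 3. On the deposited scale Hgf was 3.42, 2.35 and 3.75 times the control in the Met-high tumours and 0.795 to 1.20 times in the Met-low tumours. Tumour 5 was the highest of the Met-low tumours for receptor and ligand alike, and tumour 4 the lowest of the Met-high tumours for both. In whole tumours, more cells that express a gene and more RNA per cell cannot be told apart.

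**Figure D1:**
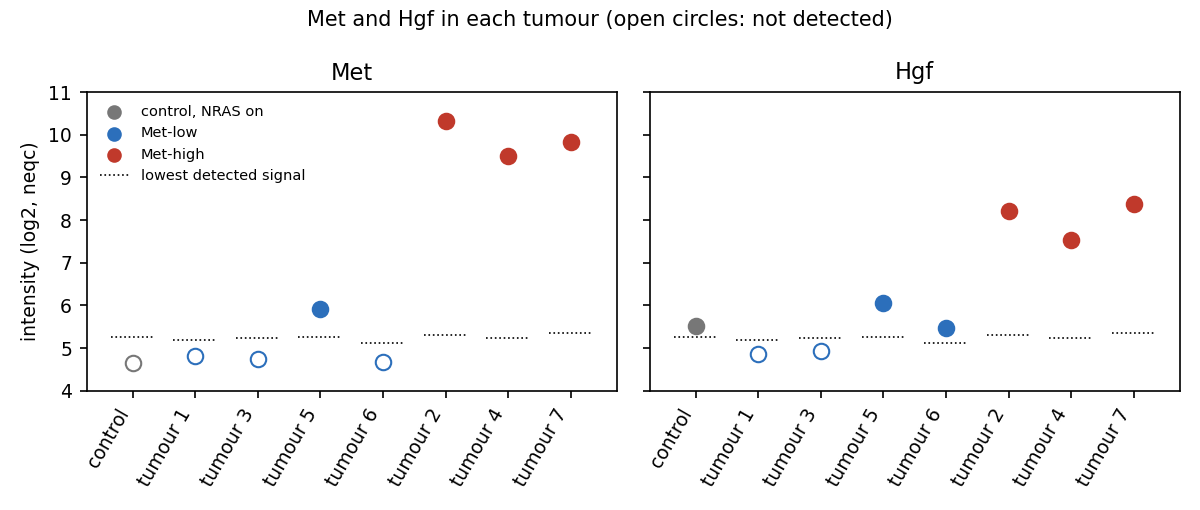
Met and Hgf intensity (log2, after background correction and quantile normalization) in each tumour, with the lowest signal among detected probes of each array as a dotted line and open circles for tumours in which the gene was not detected. Met lies between 9.51 and 10.32 in the 3 Met-high tumours and at 5.92 or below elsewhere; Hgf lies between 7.53 and 8.36 against 6.06 or below.

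Some of the genes near Met on chromosome 6 were high in the same tumours. Of the 10 protein-coding genes on either side of Met in the RefSeq order of GRCm38.p6, 17 have a probe and 9 could be tested. Of these 9, 4 were higher in every Met-high tumour than in every Met-low tumour, against 6.42% of the 9003 genes tested, and 1 passed the limma test at an adjusted p under 0.05, against 0.100% of all genes in that direction. The median log2 difference of the 9 was 2.25, against 0.02 for all genes. Capza2, the nearest gene at 0.063 Mb beyond Met, and Tfec, 0.565 Mb before it, were undetected in every tumour and could not be tested.

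St7, a gene named as a suppressor of tumorigenicity, lies 0.120 Mb beyond Met, counted between the gene bodies, and had the second smallest adjusted p of the comparison. Its log2 intensity was 10.48, 11.09 and 11.77 in tumours 2, 4 and 7 and 7.00, 6.91, 7.16 and 6.96 in tumours 1, 3, 5 and 6, with 7.44 in the control. The 4 Met-low tumours lie close together and the 3 Met-high tumours lie far above them. St7 rose 17.2-fold on the high side (log2 difference 4.11, SE 0.30, limma adjusted p = 0.00598), and a second St7 probe was detected in the 3 Met-high tumours, at 6.51, 7.01 and 8.68, and in 0 of the Met-low tumours.

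Wnt2, a secreted WNT ligand 0.411 Mb beyond Met, differed more in size than any other gene tested with a positive sign but did not pass. It read 10.31, 8.29 and 10.70 in tumours 2, 4 and 7 and 6.05, 4.72, 4.58 and 4.69 in tumours 1, 3, 5 and 6 (log2 difference 4.76, SE 0.63, limma adjusted p = 0.0562). It was detected in 1 Met-low tumour, tumour 1, and in the control at 6.73. Its limma adjusted p fell to 0.0204 when tumour 4 was left out and to 0.00842 with array weights. Every other alternative fit kept Wnt2 above 0.05, from 0.0517 with the mean of probes to 0.303 when tumour 7 was dropped. Dropping tumour 2 gave 0.285, removing the detection filter gave 0.176, and the deposited normalized values gave 0.104.

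On the other side of Met lie the caveolin genes, which encode coat proteins of plasma membrane pits. Cav1, 0.122 Mb away, read 13.96, 14.75 and 14.25 in tumours 2, 4 and 7 against 11.74, 12.58, 13.12 and 9.69 in tumours 1, 3, 5 and 6. Cav2, 0.174 Mb away, read 10.54, 11.60 and 8.30 against 5.28, 7.70, 7.82 and 5.83, while another Cav2 probe was undetected in every tumour. Neither set of values overlaps, and neither gene passed (log2 differences of 2.54 and 3.49, limma adjusted p = 0.377 and 0.317). The Met-low tumours spanned a wide range for both genes. Cftr, the chloride channel gene 0.597 Mb beyond Met, was 8.91, 11.02 and 10.27 against 10.04, 8.53, 4.76 and 7.95, which overlap.

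At other genes around Met the 3 Met-high tumours parted ways. Mdfic, a member of the MyoD inhibitor family 1.66 Mb before Met, was high in tumours 2 and 7 (10.36 and 11.05) and read 7.44 in tumour 4, inside the Met-low range of 7.34 to 7.82. Lsm8, a subunit of the U6 snRNA-binding ring 1.27 Mb beyond Met, was high in tumour 4 alone (14.61) and read 11.16 and 10.75 in tumours 2 and 7, against 10.97 to 11.55 on the low side. Asz1, a germ-cell gene 0.477 Mb beyond Met that missed the detection filter, was detected in tumours 2 and 7 only (7.16 and 7.60). At these 3 genes tumours 2 and 7 went together and tumour 4 apart, but not at Cav2 or Cftr. Cav2 stood 2.72 and 3.78 log2 units above the highest Met-low tumour in tumours 2 and 4 and 0.48 in tumour 7. Cftr was above the highest Met-low tumour in tumours 4 and 7 and below it in tumour 2. Tspan12, at 4.20 Mb, was 5.56 to 5.87 in the Met-high tumours and 5.49 to 5.65 in 3 Met-low tumours, with tumour 6 at 7.96. Gpr85, 3.62 Mb before Met, overlapped between the sides (log2 difference -0.24, SE 0.65).

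The distance from Met was then taken over the whole chromosome. Within 1 Mb of Met, 4 of 5 tested genes did not overlap and were higher in the Met-high tumours (80% of them), and tumours 2, 4 and 7 each read at least 2-fold above every Met-low tumour in 3, 4 and 3 of the 5. From 1 to 5 Mb, 0 of 9 genes were higher in all 3 without overlap. From 5 to 20 Mb, 5 of 56 genes were higher and 5 lower without overlap, and beyond 20 Mb 23 of 408 were higher (5.64%, against 6.42% of all genes) and 28 lower. Taken tumour by tumour, 1.72%, 0.980% and 2.70% of the 408 were at least 2-fold above every Met-low tumour in tumours 2, 4 and 7, against 0.822%, 0.866% and 1.46% of all 9003 genes. Copy number was not measured, so its part in these levels was not tested.

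A second run of genes on chromosome 6 was high in tumours 2 and 7 and not in tumour 4; it was singled out after its values were seen and is given as a description. Beyond 20 Mb from Met, 7 of 408 genes were at least 2-fold above every Met-low tumour in both tumours 2 and 7 (1.72%, against 0.722% of all genes), and 6 of the 7 lie together, from 37.0 to 37.6 Mb beyond Met. Plekha8, a glycolipid transfer protein of the Golgi, stood 3.73 and 3.45 log2 units above the highest Met-low tumour in tumours 2 and 7, and Znrf2, a ubiquitin ligase, 2.98 and 3.39. Ggct, an enzyme of glutathione breakdown, stood 3.00 and 3.07 above it, and Nod1, a sensor of bacterial peptidoglycan, 1.95 and 2.53. Gars, the glycyl-tRNA synthetase, and Inmt, a methyltransferase, complete the run, with 1.55 and 1.53 and with 2.57 and 1.19. Tumour 4 lay at or below the highest Met-low tumour in all 6, so none of them was without overlap, and their limma adjusted p-values were 0.390 to 0.571. Fkbp14, beside Plekha8 at 37.0 Mb, is not in the run. It read 13.29 and 12.91 in tumours 2 and 7 but also 12.36 in Met-low tumour 6, against 8.47 to 9.28 in tumours 1, 3, 4 and 5.

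**Figure D2:**
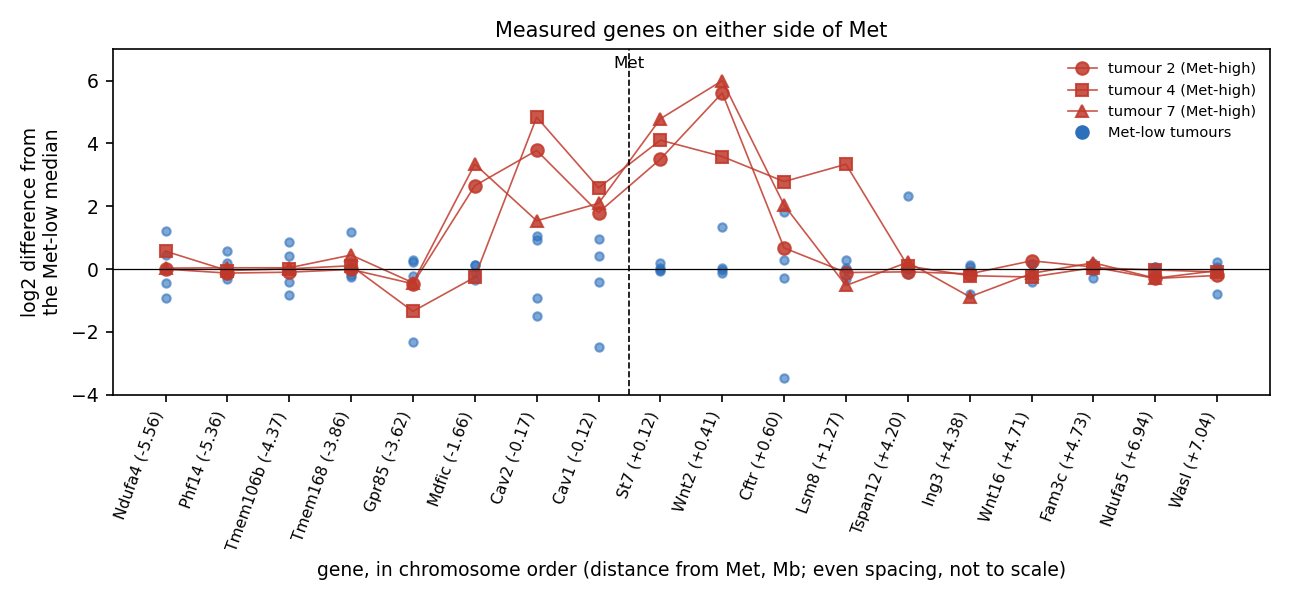
Measured genes in chromosome order on either side of Met, with each tumour's log2 difference from the Met-low median and the distance from Met in Mb in brackets (genes are spaced evenly, not to scale). The 3 Met-high tumours lie above the Met-low tumours from Cav2 to Wnt2; at Mdfic only tumours 2 and 7 do, and at Lsm8 only tumour 4.

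The genes around Hgf on chromosome 5 were set beside this. Of the 20 nearest protein-coding genes, 8 have a probe and 4 could be tested, with 0 passing and a median log2 difference of 0.65. Speer4d was detected in the 3 Met-high tumours (6.17, 6.73 and 5.48) and in 0 Met-low tumours, at least 1.89-fold higher, but it belongs to a multigene family whose copies may share the probe. Cacna2d1, a calcium channel subunit, overlapped between the sides (6.68, 6.73 and 6.72 against 7.18, 4.96, 5.76 and 5.28), through tumour 1 alone. Without tumour 1 it was higher without overlap (log2 difference 1.38, limma adjusted p = 0.178), and the median of the 4 was 0.83. Gnat3 and Phtf2 had log2 differences of 0.17 and 0.38.

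Over all 9003 genes tested, 9 were higher (0.100%) and 5 lower (0.0555%) in the Met-high tumours at a limma adjusted p under 0.05. At an unadjusted p under 0.05, 515 were higher (5.72%) and 379 lower (4.21%). With Met and Hgf left out of the tests, the 9 higher genes were Omd, St7, Tnfrsf11b, Slc7a3, Aldh1l2, Aqp5, Chac1, Rxfp3 and Rims2, and the 5 lower genes were Dnase1l3, H2-Ab1, H2-Eb1, Cd74 and Tinagl1. Of the 14, 5 were detected on 1 side only, Rxfp3 and Rims2 in the Met-high tumours and Dnase1l3, H2-Eb1 and Tinagl1 in the Met-low tumours. Such genes entered the test only through the side where they were high, which favours a difference: 22 tested genes were detected only on the Met-high side and 122 only on the Met-low side. Among the 8859 detected on both sides, 7 were higher and 2 lower. With no detection filter, Rims2 and Tinagl1 still passed (limma adjusted p = 0.0339 and 0.0218), and Rxfp3, Dnase1l3 and H2-Eb1 did not (0.144, 0.0700 and 0.0700). Of the genes detected on both sides, Slc7a3, St7 and Aqp5 still passed in that fit (limma adjusted p = 0.00391, 0.0218 and 0.0470). Omd, Tnfrsf11b, Aldh1l2, Chac1, H2-Ab1 and Cd74 did not (0.0929, 0.0564, 0.0700, 0.144, 0.0700 and 0.124). In 9 of these 14 the call held both without tumour 1 and without tumour 6. St7 and Slc7a3 were the 2 whose call held whichever single tumour was left out. The control lay between the sides for 12 of the 14 and within the Met-low range for Chac1 and Dnase1l3, and it was nearer to the Met-low mean for 12, the exceptions being Aqp5 and Tinagl1.

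**Figure D3:**
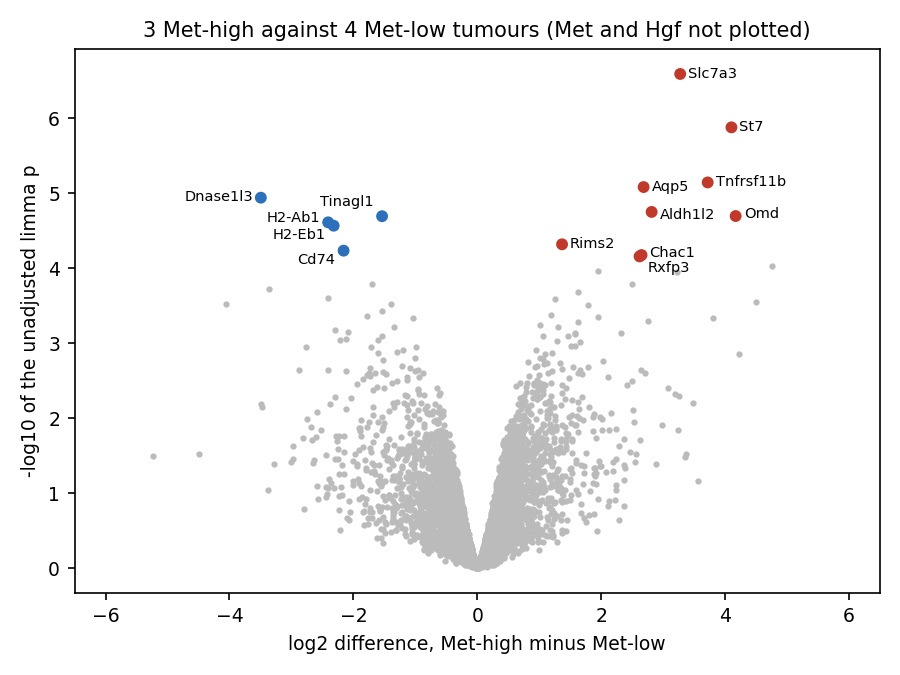
Each point is 1 of the 9003 genes tested, with the log2 difference (Met-high minus Met-low) on the horizontal axis and minus log10 of the unadjusted limma p on the vertical axis; the 14 genes that passed are named. Slc7a3 and St7 have the smallest p-values, at log2 differences of 3.28 and 4.11.

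Some of the 9 higher genes encode secreted or membrane proteins. Omd, a small proteoglycan of bone matrix, read 9.71, 7.97 and 9.51 in tumours 2, 4 and 7 and 4.60, 4.57, 5.34 and 5.04 in tumours 1, 3, 5 and 6, a rise in log2 intensity of 4.17 (SE 0.44, limma adjusted p = 0.0229). Tnfrsf11b, which encodes osteoprotegerin, a decoy receptor for the bone-resorption signal RANKL, read 9.79, 8.89 and 10.09 against 6.18, 5.50, 5.59 and 6.21, a 13.2-fold rise (log2 difference 3.72, SE 0.34, limma adjusted p = 0.0187). In both, tumour 4 was the lowest of the Met-high tumours, as it was for Met. The Omd call was lost without tumour 1 (limma adjusted p = 0.0546).

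Aqp5, a water channel of glands and lung, read 8.13, 8.19 and 8.42 against 5.09, 5.39, 6.03 and 5.72 (log2 difference 2.69, SE 0.25, limma adjusted p = 0.0187). Its control value of 7.72 lay close to the Met-high tumours. Rxfp3, the receptor of the neuropeptide relaxin-3, was detected in the 3 Met-high tumours (7.29, 8.34 and 7.05) and in 0 of the Met-low tumours, at least 5.11-fold higher (limma adjusted p = 0.0449). The bound sets the mean of the high side against the lowest signal that counts as detected on each low array. Rims2, a scaffold protein of synaptic vesicle release, was likewise undetected on the low side, with values of 5.99 to 6.19 against 4.67 to 4.97, at least 1.88-fold higher (limma adjusted p = 0.0394). Without tumour 6 neither passed (limma adjusted p = 0.0796 for Rxfp3 and 0.0657 for Rims2), and without tumour 1 Rxfp3 had 0.114. Rxfp3 and Rims2 entered the test only through the Met-high side, where they were high.

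The remaining higher genes belong to amino acid, one-carbon and glutathione metabolism. Slc7a3, a transporter of arginine and lysine, had the smallest adjusted p of the comparison. It read 8.48, 8.09 and 8.46 in tumours 2, 4 and 7 and 5.16, 5.27, 4.85 and 4.99 in tumours 1, 3, 5 and 6, with 5.64 in the control (log2 difference 3.28, SE 0.19, limma adjusted p = 0.00232). Another Slc7a3 probe was undetected in all 7 resistant tumours (log2 difference 0.13). Aldh1l2, the mitochondrial 10-formyltetrahydrofolate dehydrogenase, read 10.14, 10.28 and 10.26 against 6.85, 8.02, 7.11 and 7.66 (log2 difference 2.82, SE 0.29, limma adjusted p = 0.0229), and its other detected probe had a difference of 2.63. Chac1, an enzyme that breaks down glutathione, read 10.05, 9.75 and 10.08 against 8.13, 7.11, 7.31 and 6.68 (log2 difference 2.65, SE 0.33, limma adjusted p = 0.0449). The 3 Met-high tumours lie close together for each of these genes.

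These 3 genes are known targets of ATF4, the transcription factor of the amino acid and integrated stress response. A list of 28 ATF4 and amino acid response genes was therefore drawn up after these values were seen, and it is given as a description. Of its 26 tested members, 24 had a positive difference, 11 were higher in every Met-high tumour than in every Met-low tumour (against 6.42% of all genes), 0 were lower in that sense, and 3 passed. The 3 that passed are the genes that prompted the list, and they are among the 11. These counts therefore add nothing to their calls, and no other member passed. The median log2 difference was 0.70, against 0.02 for all genes. The mean log2 level of the list was 9.41 to 9.61 in the Met-high tumours and 8.51 to 8.80 in the Met-low tumours, with 8.89 in the control. The count without overlap was 11 without tumour 1 and 13 without tumour 6 (42.3% and 50%, against 9.19% and 8.997% of all genes in those fits).

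Several of the members that did not pass lay entirely on the high side. Asns, asparagine synthetase, read 11.60, 11.03 and 11.62 in tumours 2, 4 and 7 against 10.12, 10.12, 10.67 and 10.42 (log2 difference 1.08, limma adjusted p = 0.236). Asns lies on chromosome 6, 9.77 Mb before Met. Mthfd2, a mitochondrial enzyme of the folate cycle, read 9.03, 9.22 and 9.02 against 7.96, 7.87, 8.28 and 6.81 (log2 difference 1.36). Mthfd2 also lies on chromosome 6, 65.7 Mb beyond Met, and the part of copy number in either level was not tested. Trib3, a pseudokinase, read 5.92, 5.98 and 5.61 against 5.14, 5.06, 5.05 and 4.85. Each of these Met-low Trib3 values lies below the lowest detected signal of its array (5.12 to 5.27). Trib3 was thus undetected on the low side and entered the test only through the Met-high side. It is still among the 11 members without overlap. Psat1 and Shmt2, enzymes of serine and glycine synthesis, had differences of 0.76 and 1.44 with no overlap. Ddit3, which encodes the stress factor CHOP, read 10.32, 10.49 and 10.10 against 9.02, 10.17, 8.75 and 9.19, and overlapped through tumour 3.

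The 250 bases before the Chac1 start (RefSeq, GRCm38.p6, chr2:119350992-119351241, plus strand) are shown because this gene passed and the list was built on ATF4. Capitals mark the ATF4 core TGATGNAA, which was added to the motifs after the gene was seen, and GGGCGG, both on either strand.
Chac1: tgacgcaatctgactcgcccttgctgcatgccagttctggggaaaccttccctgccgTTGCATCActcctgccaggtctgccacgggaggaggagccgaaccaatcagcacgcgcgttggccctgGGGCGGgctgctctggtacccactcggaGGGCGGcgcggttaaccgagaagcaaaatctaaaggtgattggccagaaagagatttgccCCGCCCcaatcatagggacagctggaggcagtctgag
The core stands as TTGCATCA 193 bases before the start, on the strand opposite to the gene, and 3.97% of the 32851 windows hold it. The SP1 letters occur at 125, 97 and 37 bases before the start.

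The 5 lower genes were led by antigen presentation. MHC class II molecules present peptides to CD4+ T cells and are made by dendritic cells, B cells and activated macrophages, and by some tumour cells under interferon-gamma. The class II genes were set apart from the antigen presentation list with their values known, so their counts are a description; of the whole list of 16, 6 were lower without overlap and the median was -0.50. Of 7 class II genes tested, 6 were lower in every Met-high tumour than in every Met-low tumour, against 5.38% of all genes, and 3 passed, against 0.0555%. Their median log2 difference was -2.30, and 6 were lower without overlap and 3 passed without tumour 1 and without tumour 6 as well. The 3 that passed were not the same: H2-DMb1 took the place of Cd74 without tumour 1, and Ciita did so without tumour 6. Of the 9 class I and other presentation genes, 0 were without overlap and the median was -0.11. That value moved with single tumours, to 0.05 with 6 of 9 positive without tumour 1 and to -0.58 with 9 of 9 negative without tumour 6. The difference between the 2 sets was not tested.

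H2-Ab1, the class II beta chain, read 10.96, 11.02 and 11.41 in tumours 2, 4 and 7 and 14.14, 13.24, 13.41 and 13.36 in tumours 1, 3, 5 and 6, with 13.01 in the control. It fell 5.30-fold (log2 difference -2.41, SE 0.26, limma adjusted p = 0.0245), and its 3 other probes had differences of -2.59, -3.05 and -2.80. H2-Eb1, another beta chain, was undetected in the 3 Met-high tumours (5.07, 4.87 and 4.95) and read 7.82, 7.39, 6.80 and 7.11 in tumours 1, 3, 5 and 6, at least 3.94-fold lower (limma adjusted p = 0.0245). H2-Eb1 entered the test only through the Met-low side. Cd74, the invariant chain that escorts class II to the endosome, read 11.29, 11.14 and 11.71 against 14.05, 13.13, 13.33 and 13.61 (log2 difference -2.16, SE 0.27, limma adjusted p = 0.0439). Its call was lost without any 1 of the 7 tumours, with limma adjusted p = 0.0509 without tumour 1 and 0.0796 without tumour 6.

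The genes that load and switch on class II had the same order without passing over all 7 tumours. H2-DMa, a chain of the peptide loader, read 9.28, 9.14 and 9.50 against 11.51, 11.12, 10.66 and 10.75 (log2 difference -1.71, limma adjusted p = 0.0778). Ciita, the master activator of class II transcription, read 5.09, 5.05 and 5.45 against 8.20, 7.92, 7.67 and 6.64 (log2 difference -2.41, limma adjusted p = 0.0996), and was detected in 1 of the 3 Met-high tumours. Without tumour 6 Ciita passed (limma adjusted p = 0.0218). H2-DMb1 read 8.36, 8.13 and 8.40 against 11.78, 10.16, 10.25 and 10.20 (log2 difference -2.30, limma adjusted p = 0.150), and it passed without tumour 1 (limma adjusted p = 0.0210). The control lay near the Met-low side for Ciita (7.34) and H2-DMb1 (10.02) and near the Met-high side for H2-DMa (9.91). H2-Aa, whose probe read low throughout, overlapped (4.71 to 5.83 against 5.40 to 6.90).

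Dnase1l3, a secreted DNase made by dendritic cells and macrophages, was undetected in the Met-high tumours (4.55, 4.56 and 4.61) and read 8.97, 7.88, 7.98 and 7.45 in tumours 1, 3, 5 and 6, at least 6.80-fold lower (limma adjusted p = 0.0207). The control read 8.21. Tinagl1, a matricellular protein related to cathepsins, was also undetected on the high side, at 5.02 to 5.20 against 6.56 to 6.88, at least 2.57-fold lower (limma adjusted p = 0.0229), and was undetected in the control. Without tumour 1, Tinagl1 had a limma adjusted p of 0.0509. Dnase1l3 and Tinagl1 entered the test only through the Met-low side, where they were high. Asb2, a ubiquitin ligase subunit of muscle and immune cells, read 5.83, 5.11 and 5.14 against 9.93, 8.50, 8.73 and 7.70 and did not pass (log2 difference -3.36, limma adjusted p = 0.0868). It passed in 2 of 15 alternative fits. The fit without tumour 6 was 1 of them (limma adjusted p = 0.0428), and the lowest limma adjusted p was 0.0131.

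**Figure D4:**
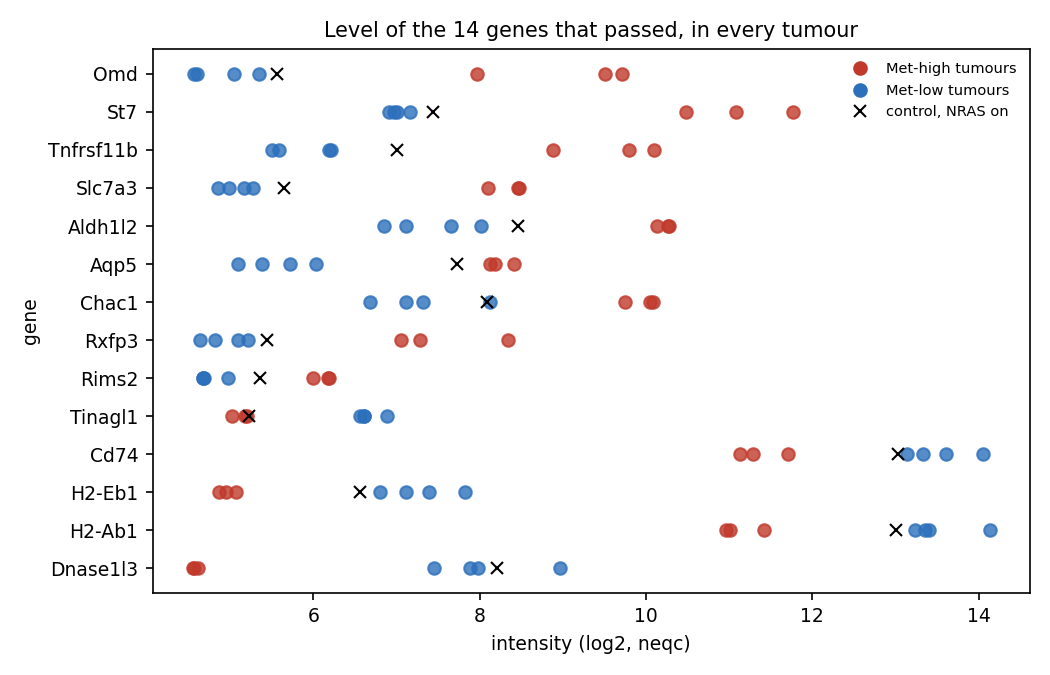
Log2 intensity of the 14 genes that passed in each Met-high (red) and Met-low (blue) tumour, with the control as a cross; levels may be compared along a row but not between rows. The sides do not overlap in any of the 14, and the control is nearer to the Met-low tumours in 12.

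Markers of the cells that carry class II were set beside this. A dendritic cell list chosen after the values were seen had 9 tested genes, of which 8 were negative. Lower without overlap were 3 (against 5.38% of all genes): Dnase1l3, H2-Oa (5.08 to 5.35 against 5.88 to 6.68) and Batf3 (5.07 to 5.73 against 6.35 to 8.30). The mean level of that list was 6.66 to 7.03 in the Met-high tumours and 7.69 to 8.49 in the Met-low tumours. Dnase1l3 is in both the count and the mean, though it was already named among the genes that passed and entered only through the Met-low side. The defining genes Itgax, Xcr1, Clec9a and Flt3 were undetected in all 7. Of 13 macrophage and myeloid genes, 2 were higher and 1 lower without overlap (15.4% and 7.69%, against 6.42% and 5.38% of all genes). The list mean was 10.01 to 10.31 against 9.90 to 10.43. Cx3cr1, a chemokine receptor of monocytes, and Cd14, a co-receptor for endotoxin, were the 2 higher genes (log2 differences 1.02 and 1.38, limma adjusted p = 0.434 and 0.440).

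All 10 lymphocyte genes tested had negative differences, with a median of -1.01, and 2 were lower without overlap (20%, against 5.38% of all genes). Tumour 1 was far above the rest: the list mean was 9.53 there, against 6.31 to 7.09 in the other Met-low tumours and 5.53 to 6.72 in the Met-high tumours, and without tumour 1 the median was -0.27. Cd79b, a B cell receptor subunit, and Prf1, perforin of cytotoxic cells, had differences of -0.98 and -1.39 and did not pass (limma adjusted p = 0.437 and 0.470). Cd4, Cd8a, Gzma, Gzmb and Ms4a1 were undetected in all 7. The part of immune cell number in the class II difference was not tested.

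Interferon response genes depended on tumour 6. Of 17, 0 were without overlap and 0 had an unadjusted p under 0.05, and the median was 0.11. Oas1a and Irf9 had the smallest p-values, with log2 differences of 0.63 and -0.45. Without tumour 6, whose list mean of 6.71 was the lowest of the 7, the median was -0.70, 16 of 17 were negative, 3 were lower without overlap (17.6%, against 7.88% of all genes in that fit) and 4 had an unadjusted p under 0.05. Of 19 chemokine genes, Ccl7, a monocyte attractant, was higher without overlap (11.33 to 11.57 against 8.66 to 10.86), and Cxcr4, the CXCL12 receptor, was 1 of the 2 that were lower (8.18 to 8.34 against 8.58 to 9.33). Neither passed (limma adjusted p = 0.355 and 0.413). Without tumour 1, 2 chemokine genes were higher and 3 lower without overlap, and without tumour 6 1 was higher and 4 lower. Over all genes, higher and lower, the shares were 6.42% and 5.38% with all 7 tumours. They were 9.19% and 7.96% without tumour 1, and 8.997% and 7.88% without tumour 6.

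Fibroblast genes were the cell type list with the most members on the high side. Of 18 tested, 9 were higher in every Met-high tumour and 1 was lower, 11 had an unadjusted p under 0.05 in the higher direction (against 5.72% of all genes), 0 passed, and the median log2 difference was 1.30. The count of higher genes without overlap was also 9 without tumour 1 and without tumour 6. That is 50% of the list each time, against 6.42% of all genes with all 7 tumours, 9.19% without tumour 1 and 8.997% without tumour 6. The list mean was 10.16 to 10.52 in the Met-high tumours and 8.90 to 9.99 in the Met-low tumours, and the control, at 10.37, lay inside the Met-high range. Dpt, a matrix protein of dermis, read 9.42, 10.31 and 9.71 against 7.27, 7.17, 8.76 and 6.03 (log2 difference 2.51, SE 0.59, limma adjusted p = 0.264). Dcn, the proteoglycan decorin, read 14.57, 14.64 and 14.57 against 12.30, 13.57, 13.45 and 11.11, and Col1a1, a chain of type I collagen, read 12.22, 13.33 and 12.63 against 10.07, 10.92, 12.01 and 11.55. Col6a2 overlapped through tumour 5 (10.25). Fbln1, a fibulin, ran the other way, at 9.08 to 10.19 against 10.56 to 12.67.

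Lists of related genes had fewer members apart. Of 15 mesenchymal transition genes, 4 were higher without overlap and 0 lower (against 6.42% and 5.38% of all genes), with a median of 0.44. Lox, which cross-links collagen, read 10.53 to 12.25 against 6.32 to 9.69 (log2 difference 3.26, limma adjusted p = 0.301), and Tnc, tenascin C, read 11.33, 11.31 and 11.74 against 10.07, 6.75, 10.78 and 9.28, with 13.56 in the control. Of 11 smooth muscle and pericyte genes, 2 were higher without overlap: Acta2, smooth muscle actin (12.39 to 14.21 against 9.77 to 11.47), and Cspg4, a pericyte and melanoma proteoglycan (8.46 to 8.56 against 5.87 to 8.24). Of 16 endothelial genes, 2 were higher without overlap, Emcn and Tie1 (log2 differences 1.06 and 0.78). Without tumour 1 there were 3 (18.8%, against 9.19% of all genes in that fit). None of the genes named in this paragraph passed. The part of stromal cell number in the Hgf difference was not tested.

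Of 19 genes of matrix proteases and invasion, 4 were higher and 2 lower without overlap (against 6.42% and 5.38% of all genes). Without tumour 1, 7 were higher (36.8%, against 9.19% of all genes in that fit). Itgb1, the beta 1 integrin, read 9.01 to 9.26 against 8.26 to 8.58, and Itga3, a laminin-binding integrin chain, read 7.17 to 7.98 against 8.27 to 9.22, so 2 integrin chains lay on opposite sides. The gelatinase Mmp2 and its activator Mmp14 were among the 4 higher (log2 differences 1.02 and 0.68). In the TGF-beta list of 19, 3 were higher and 1 lower without overlap: the ligand Tgfb3 was higher (10.13 to 10.75 against 8.74 to 9.71) and the signal transducer Smad3 lower (8.47 to 8.61 against 9.22 to 9.79). Their limma adjusted p-values were 0.239 and 0.184. Without tumour 1, 4 of this list were higher and 2 lower (21.1% and 10.5%, against 9.19% and 7.96% of all genes in that fit). Of 14 Wnt genes, 2 were higher without overlap, Wnt2 and the receptor Fzd2 (8.27 to 9.10 against 6.42 to 7.78), and without tumour 6 there were 5 (35.7%, against 8.997% of all genes in that fit).

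The partners and adaptors of MET were taken next. Of 31 genes in the HGF-MET pathway list, 30 have a probe and 18 could be tested. Of these, 2 were higher without overlap, 0 were lower (against 6.42% and 5.38% of all genes), 0 passed, and the median log2 difference was 0.02, the same as for all genes. Without tumour 6, 4 of the 18 were higher without overlap (22.2%, against 8.997% of all genes in that fit). Without tumour 1 the count was 2 (11.1%, against 9.19%), with 13 of 18 positive and a median of 0.07. Sdc1, a heparan sulfate proteoglycan that binds HGF, read 8.33, 8.06 and 8.99 against 7.30, 6.48, 7.32 and 5.21, with 8.48 in the control (log2 difference 1.88, SE 0.53, limma adjusted p = 0.349). Its other kept probe had a difference of 0.90, and a further Sdc1 probe was undetected in all 7 resistant tumours (0.17). Plxnb1, a semaphorin receptor that can associate with MET, read 5.25 to 5.37 against 4.74 to 5.15 (log2 difference 0.29). Plxnb1 lay near the array's floor and was detected in 2 Met-high tumours and 1 Met-low tumour. The adaptors Grb2, Gab1 and Shc1 had differences of -0.36, 0.25 and -0.01, each with overlap. The HGF activators and inhibitors Hgfac, Hpn, St14, Spint1 and Spint2 were undetected in all 7 tumours.

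Among 18 other receptor tyrosine kinases tested, 3 were higher and 2 lower without overlap (against 6.42% and 5.38% of all genes), and 0 passed. The 2 lower were Mertk, a receptor of the TAM family that macrophages use to clear dead cells, and Igf1r, the IGF receptor. Mertk read 7.94, 7.96 and 8.03 in tumours 2, 4 and 7 against 9.34, 8.87, 8.47 and 9.75 (log2 difference -1.13, SE 0.30, limma adjusted p = 0.319). Igf1r read 6.96, 7.01 and 6.45 against 7.54, 7.38, 7.65 and 8.55 (log2 difference -0.98, SE 0.32, limma adjusted p = 0.413). Ntrk2, the BDNF receptor, was 8.96, 9.37 and 6.78 in tumours 1, 5 and 6 and 5.05 or below in the other 4 resistant tumours, tumour 3 among them. The 3 higher were Epha3, an ephrin receptor, Ddr2, a collagen receptor, and Ryk, a Wnt co-receptor, with log2 differences of 1.89, 0.66 and 0.27.

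Of 24 receptor tyrosine kinase ligands other than Hgf, 3 were higher and 1 lower without overlap (against 6.42% and 5.38% of all genes), and the median log2 difference was 0.42, or 0.23 without tumour 6. Pdgfc, a ligand of the PDGF receptors, read 8.52, 8.42 and 8.66 against 7.20, 6.34, 6.29 and 7.16, with 7.53 in the control (log2 difference 1.79, SE 0.28, limma adjusted p = 0.103). Gdnf, the ligand of RET and its co-receptors, read 9.10, 9.79 and 9.54 against 6.35, 6.78, 8.38 and 5.59 (log2 difference 2.70, SE 0.60, limma adjusted p = 0.239), while Ret itself was undetected in all 7. Another Gdnf probe was also undetected in all 7 (log2 difference 0.08). Vegfa was the other higher ligand (10.22 to 10.46 against 8.88 to 9.98) and Fgf13 the lower one (6.28 to 7.74 against 7.82 to 10.36).

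Below the receptors, 16 genes of ERK output were tested, which report the activity of the MAPK pathway. Of these, 0 were higher and 3 lower without overlap (against 6.42% and 5.38% of all genes). In the lower direction 4 had an unadjusted p under 0.05 (against 4.21% of all genes), 0 passed, and the median was -0.21. Spry4, a feedback inhibitor, read 6.93, 5.97 and 6.75 against 7.84, 8.39, 8.07 and 9.65, with 7.05 in the control (log2 difference -1.94, SE 0.46, limma adjusted p = 0.265). Dusp6, an ERK phosphatase, read 11.84, 11.13 and 11.95 against 13.11, 12.43, 11.82 and 13.20, with 13.16 in the control, and overlapped through tumour 5 (log2 difference -0.999). Etv5 and Dusp4 were the other 2 without overlap, at 7.62 to 7.82 against 8.13 to 9.79 and 7.07 to 7.24 against 7.30 to 9.52. Without tumour 1, 2 genes of this list were higher and 4 lower without overlap (12.5% and 25%, against 9.19% and 7.96% of all genes in that fit).

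Of 11 RAS-MAPK core genes, the RAS exchange factors Rasgrp1 and Rasgrp3 lay on opposite sides: Rasgrp1, mainly of lymphocytes, read 5.65 to 6.23 against 7.36 to 10.20, and Rasgrp3 7.06 to 7.52 against 5.80 to 6.70. The other Rasgrp1 probes were undetected in all 7 resistant tumours (log2 differences 0.03 and -0.09). Of 13 PI3K-AKT core genes, Pik3ca, the catalytic subunit p110-alpha, was the 1 higher without overlap (6.68 to 6.97 against 5.74 to 6.35), and Pik3cb, the catalytic subunit p110-beta, was the 1 lower (8.13 to 8.27 against 8.35 to 8.76). Rictor, a subunit of the mTORC2 complex, overlapped (log2 difference 0.72). None of these 5 passed. In both lists 1 gene higher and 1 lower is near the 6.42% and 5.38% of all genes, and the medians were 0.01 and 0.03. Without tumour 6, 3 genes were higher without overlap in each list, with 2 lower in the first and 1 in the second. Over all genes in that fit 8.997% were higher and 7.88% lower.

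**Figure D5:**
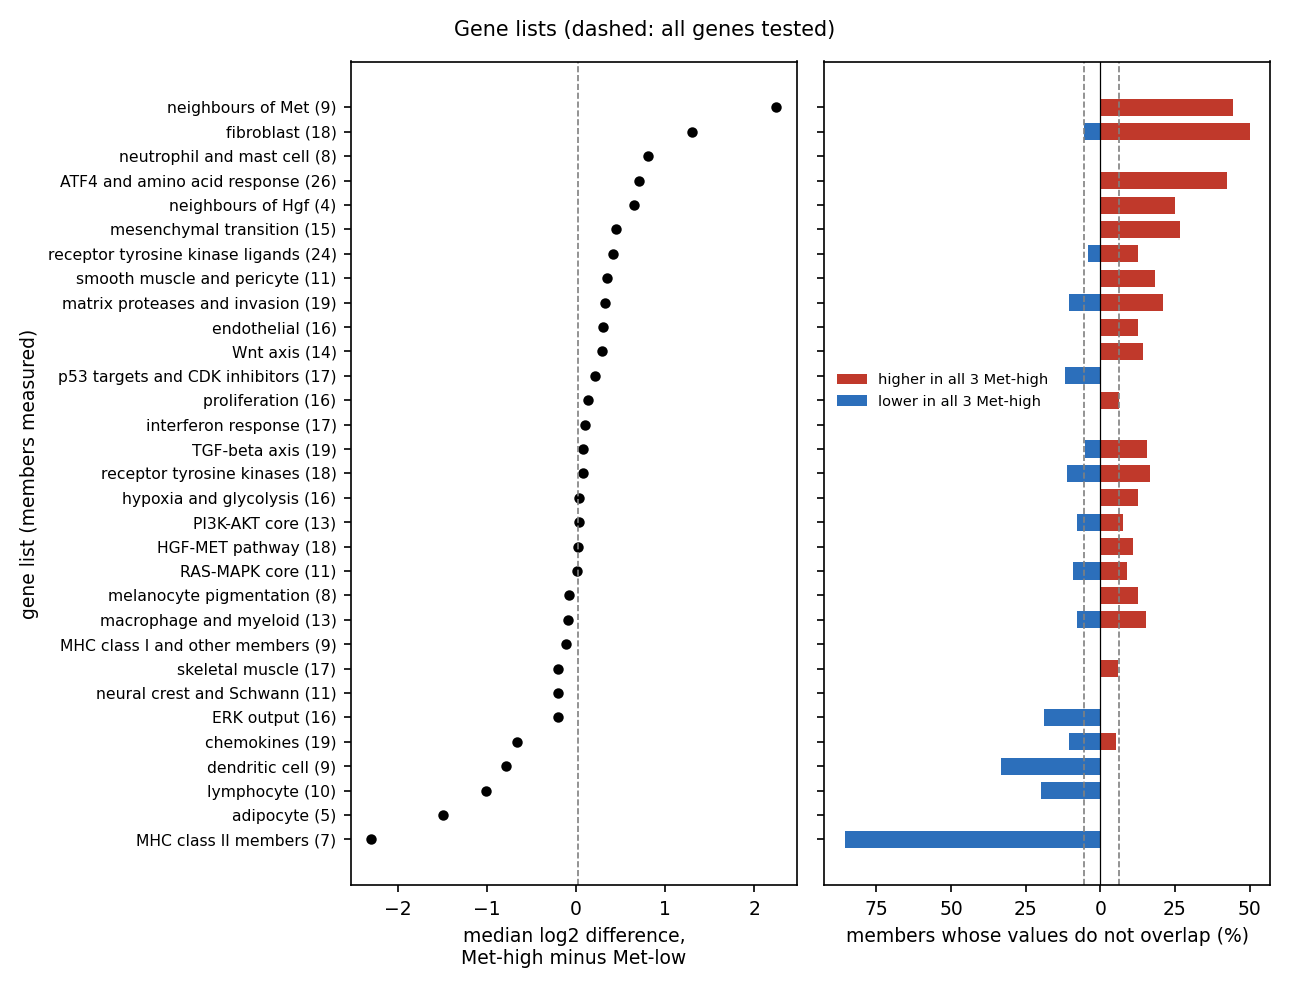
Left, the median log2 difference (Met-high minus Met-low) of the tested members of each gene list, with the number tested in brackets; right, the share of members whose values do not overlap between the sides, higher (red) or lower (blue) in the Met-high tumours. Dashed lines give all 9003 genes (median 0.02; 6.42% higher and 5.38% lower). Lists of fewer than 4 tested genes are left out, and the ATF4, dendritic cell and class II lists were drawn up with values known.

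The remaining lists gave few members apart, and over all genes 6.42% were higher and 5.38% lower without overlap. Of 16 proliferation genes, 1 was higher without overlap, Mcm5 of the replicative helicase (11.68 to 11.71 against 10.48 to 11.68), with a median of 0.13, and Mcm2 overlapped. Without tumour 6 that median was -0.11, with 2 lower without overlap (12.5%, against 7.88% of all genes in that fit). Of 17 p53 targets and CDK inhibitors, 2 were lower without overlap: Trp53inp1 (7.46 to 7.89 against 8.15 to 9.07) and Cdkn2a (8.26 to 8.41 against 8.94 to 10.52), the locus floxed in these mice, where the place of the probe among the deleted exons is not stated in the sources. Another Cdkn2a probe was undetected in all 7 resistant tumours (log2 difference -0.065). None of the 17 was higher without overlap, but 4 were without tumour 1 (23.5%, against 9.19% of all genes in that fit). Without tumour 6, 2 were (11.8%, against 8.997% of all genes in that fit). Of 16 hypoxia and glycolysis genes, 2 were higher without overlap, Vegfa and Ndrg1 (10.36 to 10.98 against 8.58 to 10.14). Of the 8 pigmentation genes tested, Mlph was higher without overlap by a log2 difference of 0.34, and Gpnmb, also made by macrophages, read 8.80 to 9.94 against 8.84 to 12.80. Mlph lay near the array's floor and was detected in 2 Met-high tumours and 1 Met-low tumour. Of 11 neural crest and Schwann cell genes 0 were without overlap, and the 2 with the smallest p, Tfap2a and Ngfr, had log2 differences of 0.34 and -0.38. Without tumour 1, 2 of the 11 were higher without overlap (18.2%, against 9.19% of all genes in that fit). Without tumour 6, 1 was (9.09%, against 8.997% of all genes in that fit).

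Other tissues in the samples were read from their markers. Skeletal muscle genes had list means of 8.79, 5.35 and 7.23 in tumours 2, 4 and 7 and of 10.90, 5.57, 5.58 and 7.15 in tumours 1, 3, 5 and 6, so the sides overlapped, with tumour 1 the highest of all and tumour 4 the lowest. With all 7 tumours 6 of 17 genes were positive, with a median of -0.20. Without tumour 1, 16 of 17 were positive, with a median of 1.14, and 1 was higher without overlap (5.88%, against 9.19% of all genes in that fit). Tpm2 was the 1 of 17 that was higher without overlap, another of its probes had the opposite sign, and Tnnt1 had a log2 difference of -1.09 (SE 1.32). All 5 adipocyte genes had negative differences, with Lpl at -1.94 and Adipoq at 4.79 to 5.66 against 4.78 to 9.12, both overlapping. Without tumour 6, 2 of the 5 were lower without overlap (40%, against 7.88% of all genes in that fit). Of 15 epithelial genes with a probe, 11 were undetected in all 7, and Krt8, a simple epithelial keratin, read 13.78, 13.59 and 14.14 against 12.71, 11.77, 11.45 and 5.18; Krt10 overlapped. The red cell genes Hba-a1 and Hbb-b2 and the mast cell genes Cpa3 and Mcpt4 overlapped between the sides, with their lowest values in tumour 6. None of the genes named in this paragraph passed.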

How the data were processed

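Total RNA of 8 tumours was labelled with biotin and read on Illumina bead arrays, per the labels' protocols. The authors deposited linear probe intensity, unnormalized, beside detection p-values, and a second table with normalized intensity. GenomeStudio is named in the submitters' processing notes; the sources state neither its version nor the normalization step. The deposited normalized intensity set the sides through the Met probe. The tests used the other table after limma's neqc (background from the detection p-values, offset 16), quantile normalization over the 8 arrays and log2.

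The platform annotation pairs 23978 of 25697 probes with 1 symbol, 0 with several and 1719 with none; 23962 were updated through RefSeq (GRCm38.p6). Probes detected (p under 0.05) in at least 3 resistant tumours were kept, so a gene detected on 1 side alone could enter through that side, and each gene is its probe with the highest mean. Met and Hgf left aside, 9003 genes were fitted with limma's lmFit and eBayes, two-sided, with Benjamini-Hochberg adjustment over all of them and 5 residual degrees of freedom among samples; a gene passed at an adjusted p under 0.05. "Without overlap" means that all values of one side lie above all values of the other. A gene undetected on a whole side has only a bound, written "at least". For Tfap2a and Tpm2 another kept probe had the opposite sign. The text names Met, Hgf, up to 8 genes per direction that passed (filled with the next smallest p without overlap), 2 genes with the smallest p of each list and the tested neighbours of Met and Hgf; Rims2, H2-DMb1, H2-Aa, the genes 37 Mb beyond Met and further list members were added after their values were seen.

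The split, its members and the 28 gene lists were chosen with earlier results of these data known, and so support nothing on their own; the ATF4 and dendritic cell lists, the class II subset and the ATF4 motif were added after the values of this comparison were seen. The fit was tested on simulated data. Alternatives covered each tumour left out, background correction, normalization, the deposited values, the filter, the variance model, array weights, the probe rule and a 2-fold limit. The columns name no chip or position, so no batch could be tested. Precision is limited by the number of arrays. The tools were limma 3.58.1 in R 4.3.3.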

Additional observations from a re-analysis of the deposited data

Results flagged for a closer look

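Within the 4 Met-low tumours, 11 of 96 genes examined had 1 tumour far from the other 3, by a gap above Dixon's 95% critical share of the range; chance gives about 1 in 20. Tumour 5 was the high one for Met itself (5.92, others 4.66 to 4.80), for Tinagl1 (6.88, others 6.56 to 6.61) and for Col6a2 (10.25, others 8.79 to 9.03). Tumour 1 was the high one for Wnt2 (6.05, others 4.58 to 4.72), Rims2 (4.97, others 4.67 to 4.68, all undetected), H2-DMb1 (11.78, others 10.16 to 10.25) and Batf3 (8.30, others 6.35 to 6.55). Tumour 3 was apart for Mlph (4.90, others 5.14 to 5.18) and Oas1a (5.29, others 4.69 to 4.71). Tumour 6 was apart for Krt8, at 5.18 against 11.45 to 12.71, and for Tspan12, at 7.96 against 5.49 to 5.65. The Met-high side has 3 tumours and was not examined in this way.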

How the results depend on the processing

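The counts of genes that passed rest on few arrays. Leaving out each tumour in turn gave 2 to 11 higher and 0 to 9 lower genes, against 9 and 5; tumours 2, 3, 4 and 7 each took the lower count to 0, and tumour 7 the higher count to 2. At an unadjusted p under 0.05 these fits gave 284 to 650 higher and 189 to 509 lower, and the fits with 0 lower genes adjusted had 189, 345, 252 and 247 unadjusted (without tumours 2, 3, 4 and 7). Without background correction and with the deposited normalized values, 1 gene was lower in each and 6 higher. Without a detection filter, 4 were higher and 1 lower, with 829 higher unadjusted. Array weights gave 38 higher and 42 lower (774 and 694 unadjusted), all 14 genes among them. Median scaling moved the median difference of all genes from 0.02 to 0.11, gave 784 higher genes unadjusted, and shared 13 of the 14 calls. Requiring a 2-fold difference left the adjusted counts at 9 and 5, and 211 and 176 unadjusted. None of the 14 turned its sign in any alternative. Among other genes, Tnnt1 turned its sign with array weights (0.26) and Gpr85 with array weights (0.39). With single tumours left out, signs turned for Hba-a1 (-0.29 to 2.19) and Hbb-b2 (-0.11 to 1.22) without tumour 6, Lsm8 (-0.31 to 1.62) without tumour 4, Tspan12 (-0.70 to 0.13) without tumour 6, and Gpr85 (-0.84 to 0.059) without tumours 4, 5 and 6. The cause was not tested. No paired analysis was possible because the sides are made of different tumours whose numbers the labels tie to no shared mouse or batch.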
